A study of Mus musculus with 3 samples.

Results

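Neutrophils that carried much RNA for the matrix metalloproteinases Mmp8 and Mmp9 and for Retnlg were described in the liver of newborn mice that had lost Pex2. Cells were chosen by their measured UMIs (unique molecular identifiers, each standing for 1 captured RNA molecule). A cell barcode was a member when Mmp8 and Mmp9 together reached 4000 CPM (UMIs per 1000000 UMIs of that barcode), Retnlg had at least 2 UMIs, and the early granule proteases Elane and Prtn3 together stayed below 5000 CPM. This gate held 7118 of 25845 barcodes, namely 2831 of 8245 in the KO library, 1626 of 8000 in the library labelled Het and 2661 of 9600 in the library labelled WT. The working name for such cells is mature segmented neutrophils, and the marker values below bear that name out only in part.

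Each library held viable CD45+ liver cells sorted at postnatal day 0, from mice labelled Pex2-/- (KO), Pex2 heterozygous (labelled Het) or Pex2 wild type (labelled WT). CD45 is the surface protein shared by leukocytes. Strain, sex, the number of animals behind a library and the way the null allele was made are not given in the labels. The RNA of fixed cells was read with gene-specific probes, with 1 library per genotype. Without replicates, no difference below was tested against variation between animals, and the intervals cover counting error only.

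Neutrophils form from promyelocytes, which fill the primary granules with proteases such as elastase and myeloperoxidase. Myelocytes and metamyelocytes then make the secondary granule proteins, among them lactoferrin (Ltf), cathelicidin (Camp), neutrophilic granule protein (Ngp) and lipocalin 2 (Lcn2), while division comes to an end. Band and segmented cells make the gelatinases and receptors of late maturation, among them the chemokine receptor Cxcr2 and the interleukin 1 decoy receptor Il1r2, before they leave for the blood. Around birth the mouse liver is still a site of blood formation, so dividing precursors and late cells lie in the same tissue. Pex2 encodes a ubiquitin ligase of the peroxisome membrane that the import of peroxisomal enzymes needs, and its loss models severe Zellweger disease.

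Pex2 had 1 UMI in KO members (0.0219 CPM), 818 in labelled Het members (44.5 CPM) and 402 in labelled WT members (21.2 CPM). Its near absence fits the KO label, but its order in the other libraries goes against theirs, so both are called by their labels. The sources used here do not say whether the probe lies in the deleted stretch. The Y-linked helicase Ddx3y had 3 UMIs in KO members, 0 in labelled Het members and 1083 in labelled WT members, so KO against labelled WT also set a library without Y-linked RNA against one with it. Depth differed in the same direction as many results below, with a median of 14809 UMIs per member in KO, 10936.5 in labelled Het and 6531 in labelled WT, and 45631257, 18379441 and 18927308 member UMIs in KO, labelled Het and labelled WT. No full barcode occurred in more than 1 library. The first 16 bases, which name the droplet, were shared by 961 barcodes of KO and labelled Het, 1184 of KO and labelled WT and 1147 of labelled Het and labelled WT.

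The gate took a larger share of the sorted cells in KO than in either other library. Members were 34.3% of KO barcodes (95% Clopper-Pearson interval 33.3 to 35.4), 20.3% of labelled Het barcodes (19.4 to 21.2) and 27.7% of labelled WT barcodes (26.8 to 28.6). The KO share was 1.69 times that of labelled Het (interval of the ratio 1.60 to 1.78) and 1.24 times that of labelled WT (1.19 to 1.29). Labelled Het was itself 0.733 times labelled WT (0.695 to 0.774), a gap between libraries that both express Pex2 and that is larger than that between KO and labelled WT. The libraries labelled Het and WT hold exactly 8000 and 9600 barcodes, and the sources used here do not say whether the number of cells was set in advance, which would bear on these denominators. Such shares also depend on the sort, on lysis of red cells and on the spin that removed hepatocytes. They depend too on each library's levels of Mmp8 and Mmp9, given below, which the threshold reads.

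The share of granule-rich neutrophils outside the gate ran the other way. This follows in part from the definition, since cells taken into the gate were left out of that group. It is thus not independent of the gate share. Barcodes with Camp, Ltf and Ngp summing to at least 10000 CPM and few Elane and Prtn3 UMIs, called granule-stage here, were 31.3% of KO barcodes (30.3 to 32.3), 40.0% of labelled Het barcodes (38.9 to 41.1) and 35.7% of labelled WT barcodes (34.7 to 36.6). Members thus made up 52.3% of members and granule-stage cells together in KO (51.0 to 53.7), 33.7% in labelled Het (32.4 to 35.0) and 43.7% in labelled WT (42.5 to 45.0). The Mmp8 and Mmp9 threshold decided most of this boundary. It alone kept out 2669 KO, 3375 labelled Het and 3619 labelled WT barcodes, whereas the Retnlg condition alone kept out 242, 22 and 40 barcodes of KO, labelled Het and labelled WT, and the Elane and Prtn3 condition alone kept out 0 in each.

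**Figure D1:**
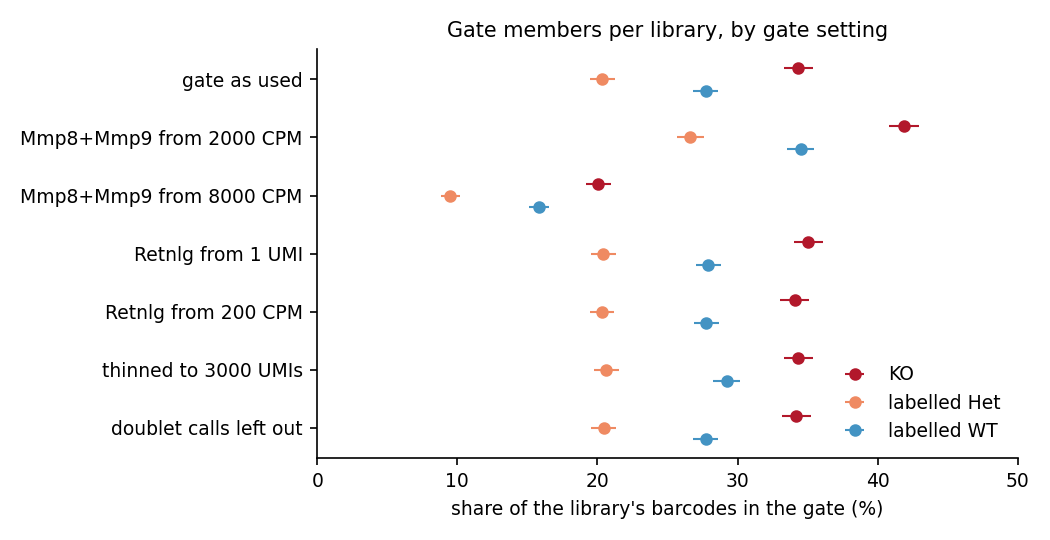
Share of each library's barcodes in the gate (horizontal axis, percent) under the thresholds used and under 6 other settings (rows), with points for the KO, labelled Het and labelled WT libraries and bars for 95% Clopper-Pearson intervals. KO lies highest and labelled Het lowest in every row, from 20.1%, 9.50% and 15.8% (KO, labelled Het, labelled WT) at 8000 CPM to 41.9%, 26.6% and 34.5% at 2000 CPM.

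The metalloproteinase threshold cuts through a continuum. KO cells just inside it (4000 to 5000 CPM, 290 cells) held 585 CPM of Cxcr2 and 799 of Mki67, and those just outside (3000 to 4000 CPM, 301 cells) held 469 and 866 CPM. In labelled Het the cells just inside (224) held 579 CPM of Cxcr2 and 365 of Mki67, and those just outside (244) held 513 and 409. In labelled WT the cells just inside (294) held 508 and 170 CPM, and those just outside (312) held 434 and 215. Cells on both sides of the line therefore resembled each other, and Mki67, a protein of dividing cells, was higher in KO on both sides.

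The metalloproteinases of the gate ran in opposite directions, which is a description of the choice and not a result. Mmp8, the neutrophil collagenase, was at 5675 CPM in KO members, 4425 in labelled Het members and 3713 in labelled WT members. Mmp9, gelatinase B, was at 2516 CPM in KO, 3280 in labelled Het and 4575 in labelled WT members. Retnlg, a resistin-like protein of neutrophils, was at 9210 CPM in KO, 11966.5 in labelled Het and 13800 in labelled WT members. In KO members Mmp8 therefore gave most of the sum that the threshold reads, and in labelled WT members Mmp9 did. Granule-stage cells outside the gate held Mmp8 at 665 CPM in KO, 248 in labelled Het and 205 in labelled WT. Their Mmp9 was at 226 CPM in KO, 373 in labelled Het and 601 in labelled WT. The part of these levels in the shares of barcodes in the gate was not tested.

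Markers of late maturation that the gate did not use were higher in members than in granule-stage cells in all libraries. Cxcr2, which draws neutrophils out of the marrow and into tissue, was at 941 CPM in KO members, 883 in labelled Het members and 798 in labelled WT members, and at 344, 296 and 254 CPM in the granule-stage cells of KO, labelled Het and labelled WT. Asprv1, a protease of late neutrophils, was at 1677 CPM in KO, 1369 in labelled Het and 1034 in labelled WT members, and at 493, 418 and 282 CPM in their granule-stage cells. Il1r2, which captures interleukin 1 without signalling, was at 493 CPM in KO, 352 in labelled Het and 139 in labelled WT members. All of these marker genes were highest in KO and lowest in labelled WT, in members as in granule-stage cells, where Il1r2 was at 110 CPM in KO, 64.5 in labelled Het and 27.0 in labelled WT.

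The name mature was met only in part, since members were still rich in secondary granule RNA. Ngp was at 39829 CPM in KO, 39905 in labelled Het and 34838 in labelled WT members, against 52370, 53193 and 50355 CPM in the granule-stage cells of KO, labelled Het and labelled WT. Ltf was no lower in members than in granule-stage cells of labelled Het, at 21010 and 20117 CPM. Promyelocyte RNA was scarce, with Mpo, the primary granule peroxidase, at 16.1 CPM in KO, 32.2 in labelled Het and 66.9 in labelled WT members. Markers of other cell types were present at low levels, of which the monocyte list (361 CPM in KO members, 63.5 in labelled Het members and 95.4 in labelled WT members) and the eosinophil list (6.46, 156 and 8.93 CPM in KO, labelled Het and labelled WT) stood out in 1 library each. At lower levels, so did the basophil and mast cell list, at 19.5 CPM in KO, 2.01 in labelled Het and 5.18 in labelled WT. The erythroid list was at 4.40 CPM in KO, 7.07 in labelled Het and 30.6 in labelled WT. Summed levels were 57.2, 84.1 and 148 CPM for 7 B-lineage genes and 56.5, 41.8 and 28.6 CPM for 9 macrophage genes in KO, labelled Het and labelled WT members. Cd3d, a chain of the T-cell receptor complex, was at 373 CPM in KO, 575 in labelled Het and 573 in labelled WT members, while its partner Cd3e had a level of 0, 0.0544 and 0 CPM in KO, labelled Het and labelled WT members.

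**Figure D2:**
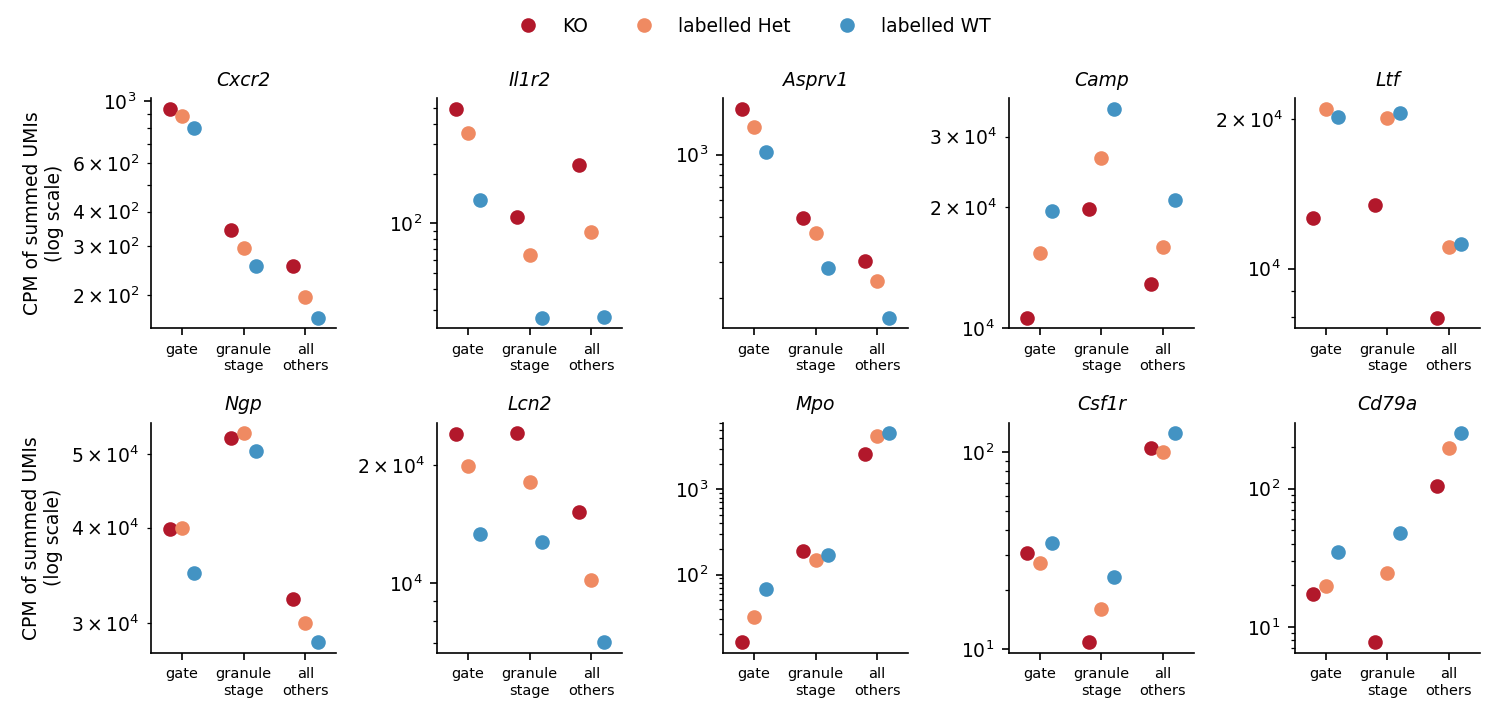
CPM of summed UMIs (log scale, ranges differ between panels) of 10 marker genes in gate members, in granule-stage cells outside the gate and in all barcodes outside the gate, with 1 point per library. Cxcr2, Il1r2 and Asprv1 are highest in members, Camp, Ltf and Ngp stay above 10000 CPM in members of all libraries, and Mpo, Csf1r and Cd79a are low there.

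Members differed among themselves most plainly by how much granule RNA they still held. Members of each library were therefore divided into quartiles by the sum of Camp, Ltf and Ngp, a division made on the same cells and given as a description. The lowest quartile (708 KO, 407 labelled Het and 665 labelled WT cells) held the most Cxcr2, at 1826 CPM in KO, 2022 in labelled Het and 1487 in labelled WT, against 678, 537 and 484 CPM in the highest quartile of KO, labelled Het and labelled WT. It also held the most Csf3r, the receptor for granulocyte colony-stimulating factor (1905, 2447 and 1756 CPM in KO, labelled Het and labelled WT). Il1b, the cytokine interleukin 1 beta, was found almost wholly there, at 101 CPM in KO, 300 in labelled Het and 66.2 in labelled WT, and at under 5 CPM in the other quartiles of each library. The lowest quartile thus carried the most Cxcr2, Csf3r and Il1b in all 3 libraries, but less Ly6g and Padi4, both described below, than the highest. Padi4 was at 112 CPM in KO, 260 in labelled Het and 341 in labelled WT there. In the highest quartile it was at 287, 562 and 634 CPM in KO, labelled Het and labelled WT. The lowest quartile also held the most F13a1 and Fn1, given below, and which of its cells carried Il1b was not tested.

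Il1r2 was highest in KO and lowest in labelled WT in every quartile. It was at 1687 CPM in KO, 1212 in labelled Het and 314 in labelled WT cells of the lowest quartile, and at 169, 120 and 65.2 CPM in the highest quartile of KO, labelled Het and labelled WT. Quartiles were cut within each library and so differ in granule RNA. Medians of Camp, Ltf and Ngp together were 2483 CPM in KO, 4796 in labelled Het and 11273 in labelled WT for the lowest quartile. They were close at 90415 CPM in KO quartile 4, 87161.5 in labelled Het quartile 3 and 89053.5 in labelled WT quartile 3. There Il1r2 was at 169 CPM in KO, 172 in labelled Het and 82.9 in labelled WT, so KO was above labelled WT only. Ly6g, the surface protein by which mouse neutrophils are usually recognised, ran the other way, at 106 CPM in KO, 236 in labelled Het and 451 in labelled WT cells of the lowest quartile and 176, 586 and 866 CPM in the highest quartile of KO, labelled Het and labelled WT. Ly6g was therefore lowest in KO in every quartile. It was also lowest in KO quartile 4 (176 CPM) beside quartile 3 of labelled Het (468 CPM) and labelled WT (728 CPM), where granule RNA was close.

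**Figure D3:**
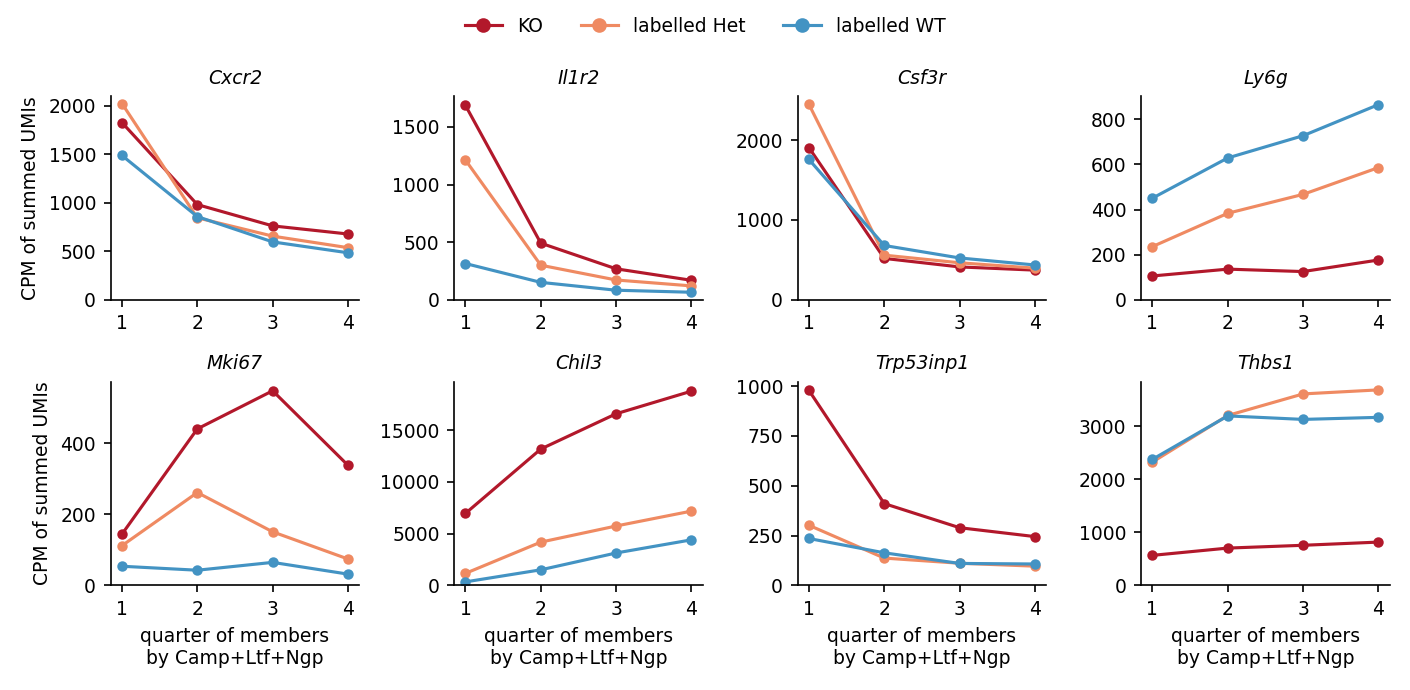
CPM of summed UMIs (vertical axes from 0) of 8 genes in the 4 quartiles of each library's members, ordered from least (1) to most (4) Camp, Ltf and Ngp, with 1 line per library (KO, labelled Het, labelled WT). Cxcr2, Il1r2 and Csf3r fall from quartile 1 to quartile 4 in all libraries, while Ly6g and Thbs1 lie lower and Chil3 and Trp53inp1 higher in KO in all quartiles.

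More KO members carried RNA of dividing cells. A member was called dividing when Mki67 and Top2a, a topoisomerase of mitotic chromosomes, together had at least 2 UMIs. This held for 26.0% of KO, 11.6% of labelled Het and 4.77% of labelled WT members. With each cell thinned to 3000 UMIs, which left out 55 KO, 41 labelled Het and 68 labelled WT members, the shares were 18.2% in KO (16.8 to 19.7), 7.19% in labelled Het (5.97 to 8.58) and 2.85% in labelled WT (2.25 to 3.57). Thinned granule-stage cells gave 72.4%, 57.3% and 48.8% in KO, labelled Het and labelled WT. Members with the least granule RNA gave 5.79% in KO, 4.91% in labelled Het and 2.56% in labelled WT without thinning, from cells of lower depth (median 7456.5 UMIs in KO, 6141 in labelled Het and 4969 in labelled WT). The part of free RNA in these shares was not tested. Division in a share of members goes against a fully segmented state. The other results were therefore repeated in members that were not dividing (2095 in KO, 1437 in labelled Het and 2534 in labelled WT). That cut used unthinned UMIs, so it depends on depth, which was highest in KO and lowest in labelled WT. The part of depth in the results for members not dividing was not tested.

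Of 6333 genes with a mean of at least 10 CPM in members, leaving out the genes of the gate, 192 were at least 2-fold higher in KO than in both other libraries (3.03%) and 104 at least 2-fold lower than in both (1.64%). With totals scaled by the median of ratios in place of all UMIs, the split was 132 higher and 137 lower, since that scaling moved the median log2 ratio of all genes from 0.14 to 0.02 for KO over labelled Het. Labelled Het, set against labelled WT alone, was 2-fold higher for 139 genes (2.19%) and 2-fold lower for 49 (0.774%). At these depths counting error is small, so that KO lay above both other libraries with both intervals excluding 1 for 2620 genes (41.4%) and below both for 1354 (21.4%). In members not dividing, 89 of 6016 genes were 2-fold higher (1.48%) and 109 were 2-fold lower (1.81%). Of the 192 genes, 70 were among those 89, and of the 104 genes, 86 were among those 109, so the lower genes depended less on dividing cells in these counts. Of the 104 lower genes, 100 were also below both other libraries in granule-stage cells outside the gate, 70 of them by 2-fold. Of the 192 higher genes, 171 were above both there, 24 of them by 2-fold. The shares of all genes above or below both libraries in granule-stage cells were not computed. These overlaps are therefore a description without a background.

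**Figure D4:**
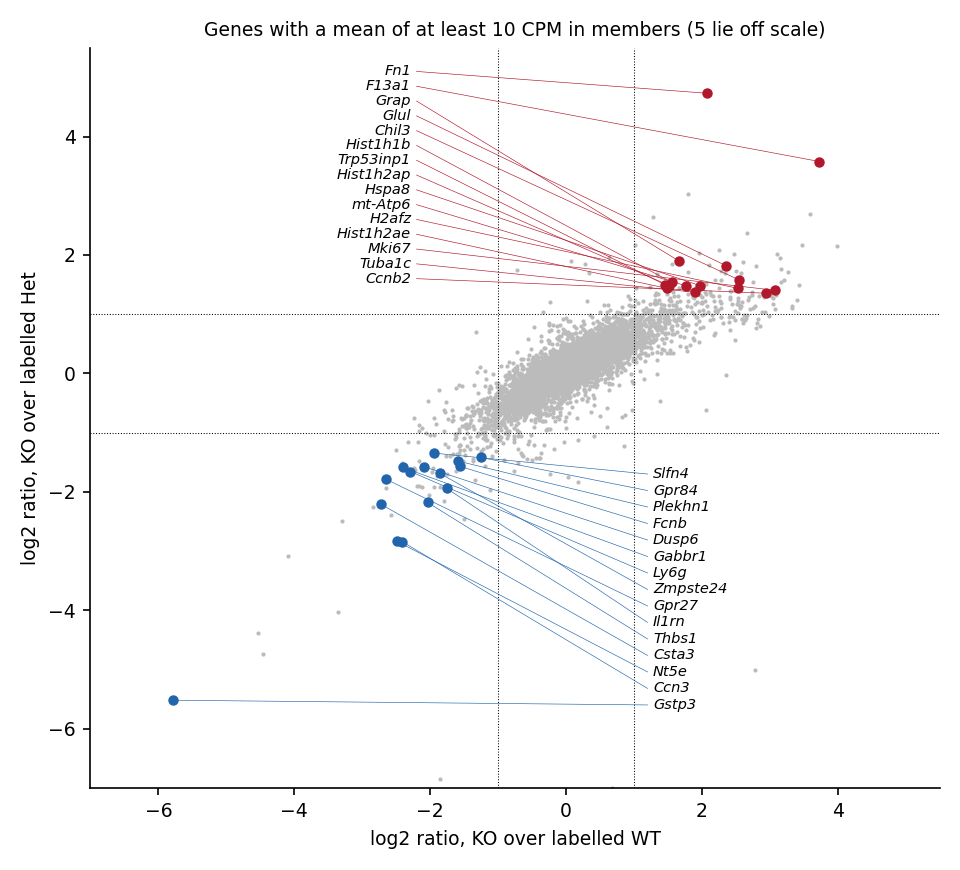
Log2 ratios of KO over labelled WT (horizontal) and KO over labelled Het (vertical) for genes with a mean of at least 10 CPM in members, 1 grey point per gene, with dotted lines at 2-fold and 5 genes off scale. The 15 named genes in each direction are coloured, with Gstp3 at -5.79 and -5.52 and F13a1 at 3.73 and 3.58.

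Among abundant genes, Gstp3 was the most reduced in KO members. Gstp3 (ENSMUSG00000058216, chromosome 19, 4057477 to 4059569, minus strand, GRCm38) encodes a pi-class glutathione transferase, an enzyme that couples glutathione to reactive molecules. It was at 3.27 CPM in KO members, 150 in labelled Het members and 181 in labelled WT members. KO held 0.0217 times the labelled Het level (0.0183 to 0.0256) and 0.0180 times the labelled WT level (0.0152 to 0.0212). A Gstp3 UMI was found in 3.25% of KO, 65.2% of labelled Het and 58.8% of labelled WT members, and after thinning in 1.22%, 32.6% and 39.0% of KO, labelled Het and labelled WT members. Thinned B-lineage barcodes gave 0% in KO (0 of 723, which allows up to 0.509%), 1.20% in labelled Het and 1.30% in labelled WT. Their median depths were 6042.5, 8375.5 and 6274 UMIs in KO, labelled Het and labelled WT.

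Gstp3 was nearly lost also without dividing members (3.03, 163 and 186 CPM in KO, labelled Het and labelled WT), in all quartiles of granule RNA (2.05 to 4.38 CPM in KO, 139 to 173 in labelled Het and 168 to 192 in labelled WT) and in granule-stage cells outside the gate (2.69, 132 and 148 CPM in KO, labelled Het and labelled WT). Of its neighbours in the family, Gstp1 was at 4.58 CPM in KO, 6.04 in labelled Het and 8.19 in labelled WT members, and Gstp2 had 0, 2 and 1 UMIs in KO, labelled Het and labelled WT. Longest transcripts of Gstp3 and Gstp1 were 61.7% identical and those of Gstp1 and Gstp2 90.4%, so probes could confuse the last pair more readily than Gstp3. Nfe2l2, the transcription factor that switches on many such enzymes, was at 65.4 CPM in KO, 118 in labelled Het and 124 in labelled WT members.

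Apart from Pex2, 4 measured genes were at least 16-fold lower in KO members than in both others, and 3 of them are named here because of their values. St8sia1, a sialyltransferase that makes gangliosides, was at 0.329 CPM in KO, 58.5 in labelled Het and 78.0 in labelled WT members. Ndufs5, part of complex I of the respiratory chain, was at 1.34 CPM in KO, 28.1 in labelled Het and 31.1 in labelled WT members. Plekhg1, a guanine nucleotide exchange factor, was at 0.833 CPM in KO, 22.4 in labelled Het and 18.5 in labelled WT members. Like Gstp3, they were also nearly lost in granule-stage cells, where St8sia1 was at 0.134 CPM in KO, 59.1 in labelled Het and 57.2 in labelled WT.

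Thbs1, the most abundant of the named lower genes, encodes the matrix protein thrombospondin 1. It was at 734 CPM in KO, 3327 in labelled Het and 3015 in labelled WT members, or 0.221 times labelled Het (0.218 to 0.224) and 0.243 times labelled WT (0.240 to 0.247). A Thbs1 UMI was found in 83.0% of KO, 97.2% of labelled Het and 98.3% of labelled WT members. After thinning the shares were 65.7% in KO, 95.9% in labelled Het and 98.2% in labelled WT. Thbs1 RNA was thus less abundant in KO, and found in fewer but still in most KO members. Nt5e, the ectoenzyme CD73 that makes adenosine from AMP, was at 12.4 CPM in KO, 88.3 in labelled Het and 69.8 in labelled WT members. Ccn3, a secreted matrix-linked protein, was at 17.0 CPM in KO, 122 in labelled Het and 90.9 in labelled WT members.

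Ly6g was at 141 CPM in KO, 445 in labelled Het and 691 in labelled WT members, or 0.317 times labelled Het (0.307 to 0.327) and 0.204 times labelled WT (0.198 to 0.210). After thinning, 25.3% of KO, 51.5% of labelled Het and 73.4% of labelled WT members had a Ly6g UMI, against 0.138%, 0.764% and 1.63% of B-lineage barcodes of KO, labelled Het and labelled WT. The difference between labelled Het and labelled WT has the same direction, so the KO value continues an order that the other libraries already show. Ly6g belongs to a family of close copies on chromosome 15, and its value is uncertain where probes are shared.

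Of 9 measured inflammatory cytokine and chemokine genes, 3 were above and 4 below both other libraries (41.4% and 21.4% over all genes). Among them Il1rn, the interleukin 1 receptor antagonist, was at 31.3 CPM in KO, 121 in labelled Het and 106 in labelled WT members. Slfn4, an interferon-induced myeloid protein, was at 171 CPM in KO, 434 in labelled Het and 659 in labelled WT members. Gpr84, a receptor for medium-chain fatty acids, was at 34.2 CPM in KO, 91.4 in labelled Het and 81.7 in labelled WT members. Dusp6, a phosphatase that turns off ERK kinases, was at 41.7 CPM in KO, 124 in labelled Het and 178 in labelled WT members. Il1rn, Slfn4, Gpr84 and Dusp6 were named for their low values in KO. Slfn4, Gpr84 and Dusp6 lie outside the cytokine and chemokine list, of which only 1 gene was at least 2-fold below both. Il1rn does not stand for that list, of which 3 genes were above both other libraries. Slfn4 and Dusp6 were also lower in labelled Het than in labelled WT.

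The remaining named genes were lower in KO by similar factors. Csta3, a cystatin-type protease inhibitor with close copies in the stefin cluster, was at 135 CPM in KO, 621 in labelled Het and 893 in labelled WT members. Gpr27 (39.0, 135 and 245 CPM in KO, labelled Het and labelled WT) and Gabbr1 (81.4, 245 and 430 CPM in KO, labelled Het and labelled WT) encode G-protein-coupled receptors, the second a subunit of the GABA-B receptor. Zmpste24, the protease that processes prelamin A, was at 158 CPM in KO, 509 in labelled Het and 573 in labelled WT members. Fcnb, a ficolin of immature neutrophils that binds sugars on microbes, was at 105, 313 and 311 CPM in KO, labelled Het and labelled WT, and Plekhn1 at 161, 450 and 484 CPM. Both Zmpste24 and Fcnb were higher in granule-stage cells than in members of each library, and in the lowest quartile of granule RNA the log2 ratios of KO over labelled Het were -0.23 for Zmpste24 and -0.045 for Fcnb, and those of KO over labelled WT -0.59 for Zmpste24 and -0.98 for Fcnb.

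Among genes higher in KO members, F13a1 stood furthest out. It encodes the A chain of clotting factor XIII, a transglutaminase known from platelets, monocytes and macrophages. F13a1 (ENSMUSG00000039109, chromosome 13, 36867178 to 37050244, minus strand, GRCm38) was at 287 CPM in KO members, 24.0 in labelled Het members and 21.6 in labelled WT members, 12.0 times labelled Het (10.9 to 13.2) and 13.3 times labelled WT (12.0 to 14.7). A UMI was found in 63.9% of KO, 12.5% of labelled Het and 4.06% of labelled WT members, and after thinning in 36.6%, 4.67% and 2.01% of KO, labelled Het and labelled WT members. Thinned B-lineage barcodes gave 6.09% in KO, 8.19% in labelled Het and 7.98% in labelled WT, so only the KO share lay above that background. In KO it was at 676 CPM in the quartile with the least granule RNA and 189 CPM in that with the most, and in granule-stage cells it was at 261 CPM in KO, 55.6 in labelled Het and 37.4 in labelled WT.

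F13a1 is also on the list of 5 measured monocyte markers, and of the other 4, Ms4a6c was also higher in KO while Csf1r, Ccr2 and Irf8 were not above both other libraries. The list summed to 361 CPM in KO, 63.5 in labelled Het and 95.4 in labelled WT members, with none at 0. Csf1r, the receptor for macrophage colony-stimulating factor, was at 30.7 CPM in KO, 27.4 in labelled Het and 34.6 in labelled WT members. Ccr2, the chemokine receptor of monocytes, was at 11.9 CPM in KO, 4.46 in labelled Het and 12.6 in labelled WT members, and Irf8, a transcription factor of monocytes, at 7.89, 4.84 and 19.8 CPM in KO, labelled Het and labelled WT. Ms4a6c, a membrane protein of monocytes, was at 23.8 CPM in KO, 2.88 in labelled Het and 6.87 in labelled WT members. Among members without a UMI of Csf1r, Ccr2, Ms4a6c or the complement genes C1qa, C1qb and C1qc, the log2 ratio of F13a1 was 3.44 for KO over labelled Het and 5.23 for KO over labelled WT.

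Fn1, which encodes the matrix protein fibronectin, behaved differently. It was at 232 CPM in KO members, 8.71 in labelled Het members and 55.1 in labelled WT members, but only 10.3% of KO members had a UMI, next to 10.9% of KO B-lineage barcodes. After thinning the member shares were 4.14% in KO, 1.39% in labelled Het and 2.35% in labelled WT, under the B-lineage shares of 6.09%, 3.28% and 5.21% in KO, labelled Het and labelled WT. The KO level was 1364 CPM in the quartile with the least granule RNA and 9.85 CPM in that with the most. Among members without the monocyte and macrophage UMIs named above, the log2 ratios were 0.51 for KO over labelled Het and -0.25 for KO over labelled WT, so the Fn1 difference lay in members that also held such UMIs.

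Metabolic and stress-linked genes followed. Glul, glutamine synthetase, was at 249 CPM in KO, 70.5 in labelled Het and 48.9 in labelled WT members. Trp53inp1, a stress protein that p53 can induce, was at 403 CPM in KO, 143 in labelled Het and 146 in labelled WT members, with the widest gap in the quartile with the least granule RNA (978, 301 and 235 CPM in KO, labelled Het and labelled WT). Of the 10 measured genes on the p53 list, 4 were above and 3 below both other libraries (41.4% and 21.4% over all genes). Mdm2, the ligase that p53 induces against itself, was at 115 CPM in KO, 114 in labelled Het and 127 in labelled WT members. Hspa8, a constitutive chaperone, was at 130 CPM in KO, 46.4 in labelled Het and 33.1 in labelled WT members. Grap, an adaptor related to Grb2, was at 167 CPM in KO, 44.8 in labelled Het and 52.8 in labelled WT members.

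Chil3, a chitinase-like protein stored by immature neutrophils and made by activated macrophages, was the most abundant of the named genes at least 2-fold higher. It was at 15056 CPM in KO, 5047 in labelled Het and 2567 in labelled WT members, 2.98 times labelled Het and 5.86 times labelled WT. Labelled Het was also above labelled WT. In each library its level was higher in members with more granule RNA, and in granule-stage cells it was at 23190.0 CPM in KO, 11559.7 in labelled Het and 7467 in labelled WT. Chil3 and Chil4 transcripts are 94.3% identical, so some of these UMIs could belong to the copy.

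The other named genes higher in KO are known from dividing cells. Mki67 was at 399 CPM in KO, 151 in labelled Het and 47.3 in labelled WT members, and Ccnb2, a cyclin of mitosis, at 179, 70.1 and 23.4 CPM in KO, labelled Het and labelled WT. H2afz, a histone variant, was at 185 CPM in KO, 68.2 in labelled Het and 32.0 in labelled WT members, and Tuba1c, an alpha tubulin with close copies, at 240, 92.7 and 64.1 CPM in KO, labelled Het and labelled WT. The replication-linked histone genes Hist1h1b, Hist1h2ap and Hist1h2ae, which also have near-identical copies, were 2.70 to 2.95 times as high in KO. In members not dividing, a cut that depends on depth, Hist1h2ap was at 86.4 CPM in KO, 112 in labelled Het and 149 in labelled WT. KO was no longer higher there. H2afz stayed higher in KO there, at 84.9 CPM in KO, 40.8 in labelled Het and 23.8 in labelled WT, as did Ccnb2 at 13.8, 4.67 and 5.01 CPM in KO, labelled Het and labelled WT.

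All 27 measured genes of a list of mitosis genes were above both other libraries in KO (41.4% over all genes), 19 of them by 2-fold (3.03% over all genes), with medians of 1.11 for KO over labelled Het and 2.62 for KO over labelled WT. The medians over all 6333 genes were 0.14 and 0.09. Without dividing members the same 27 genes had medians of -0.27 and -0.76, which follows in part from leaving out cells by Mki67 and Top2a. That cut also depends on depth. With the minimum of 10 CPM applied again, Mki67 alone was left of the list, at -0.27 for KO over labelled Het and 0.13 for KO over labelled WT. The labelled Het over labelled WT median of the list was 1.57, so the libraries differed in the order KO, labelled Het, labelled WT.

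Secondary granule genes moved in both directions. Of 19 measured, 6 were above and 9 below both other libraries in KO (41.4% and 21.4% over all genes). Ltf was at 12627 CPM in KO, 21010 in labelled Het and 20167 in labelled WT members, and Camp at 10605, 15397 and 19531 CPM in KO, labelled Het and labelled WT. Lyz2, lysozyme, was at 3972 CPM in KO, 6764 in labelled Het and 6765 in labelled WT members, and Anxa1, which ends neutrophil recruitment, at 3567, 6457 and 6266 CPM in KO, labelled Het and labelled WT. Lcn2, which withholds iron from bacteria, went the other way at 24136 CPM in KO, 19907 in labelled Het and 13325 in labelled WT members, as did Chil3. Of 7 primary granule genes, 3 were above and 3 below both (41.4% and 21.4% over all genes).

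Late maturation genes as a group did not follow Cxcr2 and Il1r2. Of 30 measured, 8 were above and 13 below both other libraries in KO (41.4% and 21.4% over all genes), with medians of -0.20 for KO over labelled Het and 0.07 for KO over labelled WT. Fpr2, a receptor for formylated peptides, was at 1981 CPM in KO, 1225 in labelled Het and 997 in labelled WT members, while its relative Fpr1 was at 484, 605 and 703 CPM in KO, labelled Het and labelled WT. Mxd1, a transcription factor that opposes Myc, was at 1133 CPM in KO, 1387 in labelled Het and 1929 in labelled WT members. Stfa3, an abundant stefin, was at 9079 CPM in KO, 12981 in labelled Het and 14466 in labelled WT members. Late genes thus stood on both sides within the same cells.

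Genes of segmentation and of nuclear release were mixed as well. Padi4, which citrullinates histones when neutrophils release chromatin, was at 234 CPM in KO, 489 in labelled Het and 535 in labelled WT members, below both by 2-fold. Lbr, the lamin B receptor that lobed nuclei need, was at 852 CPM in KO, 836 in labelled Het and 691 in labelled WT members. The linker histone gene H1f0, known from cells that stop dividing, was at 172 CPM in KO, 476 in labelled Het and 325 in labelled WT members.

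Of the chemoattractant receptors, 3 of 9 were above and 4 below both other libraries in KO (41.4% and 21.4% over all genes). C5ar2, the second receptor for complement C5a, was at 43.1 CPM in KO, 91.3 in labelled Het and 98.4 in labelled WT members, while C5ar1 was at 622, 696 and 830 CPM in KO, labelled Het and labelled WT. Cxcr4, which retains neutrophils in the marrow, was at 378 CPM in KO, 394 in labelled Het and 492 in labelled WT members. All 8 genes of the NADPH oxidase and its proton channel were measured, with 3 above and 5 below both other libraries in KO (41.4% and 21.4% over all genes), by less than 2-fold. Cybb, the catalytic subunit, was at 836 CPM in KO, 1122 in labelled Het and 1044 in labelled WT members.

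Genes that glucocorticoids are known to induce were higher in KO as a group. Of 15 measured, 11 were above and 3 below both other libraries (41.4% and 21.4% over all genes), with medians of 0.37 for KO over labelled Het and 1.44 for KO over labelled WT. Ddit4, an inhibitor of the growth kinase mTORC1, was at 66.9 CPM in KO, 15.7 in labelled Het and 14.0 in labelled WT members. Mt1, a metallothionein that binds zinc, was at 28.4 CPM in KO, 8.54 in labelled Het and 5.81 in labelled WT members, and Fkbp5, a chaperone of the glucocorticoid receptor, at 256, 195 and 94.1 CPM in KO, labelled Het and labelled WT. Dusp1, a phosphatase of stress kinases, was at 594 CPM in KO, 403 in labelled Het and 161 in labelled WT members. Cebpd went the other way, at 344 CPM in KO, 511 in labelled Het and 698 in labelled WT members. The medians stayed above 0 without dividing members (0.41 and 1.58) and in the quartile with the least granule RNA (0.48 and 1.82). The median for labelled Het over labelled WT was 0.49.

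**Figure D5:**
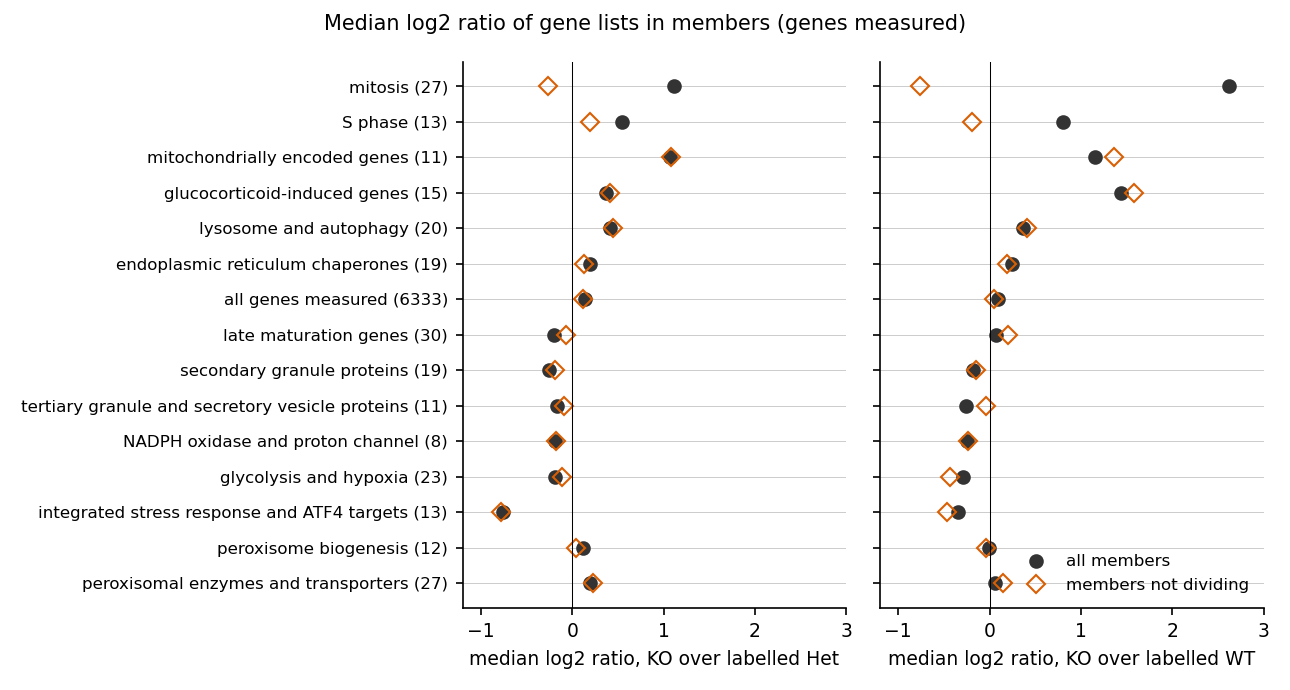
Median log2 ratio of gene lists (rows, with the number of genes measured) for KO over labelled Het (left) and KO over labelled WT (right), in all members (filled points) and in members not dividing (open diamonds). The mitosis list changes side without dividing members, whereas the mitochondrially encoded and glucocorticoid-induced lists stay to the right of the line for all genes measured.

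Mitochondrially encoded genes were also higher in KO as a group. Of 11 measured, 9 were above both other libraries in KO (41.4% over all genes), 6 of them by 2-fold (3.03% over all genes), with medians of 1.07 for KO over labelled Het and 1.15 for KO over labelled WT. Among them mt-Nd1, of respiratory complex I, was at 43.5 CPM in KO, 10.8 in labelled Het and 7.82 in labelled WT members, and mt-Atp6, of ATP synthase, at 134, 48.0 and 39.5 CPM in KO, labelled Het and labelled WT. The exception was mt-Nd6, the gene read from the opposite strand, at 9.64 CPM in KO, 13.4 in labelled Het and 32.8 in labelled WT members. The medians were no smaller without dividing members, at 1.08 and 1.36. Mitochondrial RNA is also used as a sign of cell condition, and the part of cell condition in these values was not tested.

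Lists of energy metabolism and of stress gave smaller medians. Of 23 glycolysis and hypoxia genes, 14 were below and 5 above both other libraries (21.4% and 41.4% over all genes), with medians of -0.19 for KO over labelled Het and -0.29 for KO over labelled WT. Pfkp, a phosphofructokinase, was at 17.8 CPM in KO, 59.2 in labelled Het and 66.6 in labelled WT members, and Hk3, the hexokinase of granulocytes, at 68.4, 128 and 183 CPM in KO, labelled Het and labelled WT. Gpi1, glucose phosphate isomerase, went the other way at 1031 CPM in KO, 750 in labelled Het and 694 in labelled WT members. Of 13 genes of the integrated stress response, 6 were below and 1 above both (21.4% and 41.4% over all genes). The medians of this response were -0.76 and -0.35, or 0.02 and 0.81 with a minimum of 50 CPM. Its transcription factor Atf4 was at 25.4 CPM in KO, 46.3 in labelled Het and 42.4 in labelled WT members, and the cystine transporter gene Slc7a11 at 3.44, 18.9 and 9.77 CPM in KO, labelled Het and labelled WT.

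Of 20 measured lysosome and autophagy genes, 14 were above and 2 below both other libraries (41.4% and 21.4% over all genes), with medians of 0.41 for KO over labelled Het and 0.37 for KO over labelled WT. Lamp2, a protein of the lysosome membrane, was at 232 CPM in KO, 172 in labelled Het and 157 in labelled WT members, and Ctsb, cathepsin B, at 216, 123 and 119 CPM in KO, labelled Het and labelled WT. Interferon-stimulated genes were lowest in labelled Het as a group, with a median over 8 genes of -1.38 for labelled Het over labelled WT. Their medians were 0.57 for KO over labelled Het and -0.50 for KO over labelled WT. Of the 8, 2 were above and 2 below both other libraries in KO (41.4% and 21.4% over all genes). Oas3, an enzyme that senses double-stranded RNA, was at 30.6 CPM in KO, 8.43 in labelled Het and 25.3 in labelled WT members. Its KO value lay above labelled WT, unlike the list median.

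Lipid genes bear on peroxisomes, which shorten very long fatty acids and start the synthesis of ether lipids. Of 23 genes of lipid droplets and fatty acid handling, 9 were above and 11 below both other libraries in KO (41.4% and 21.4% over all genes). Plin2, which coats lipid droplets, was at 69.3 CPM in KO, 183 in labelled Het and 148 in labelled WT members, and G0s2, which restrains droplet lipolysis, at 48.1, 111 and 142 CPM in KO, labelled Het and labelled WT. Acadl, a mitochondrial fatty acid dehydrogenase, was at 79.2 CPM in KO, 30.6 in labelled Het and 19.2 in labelled WT members. In the leukotriene pathway, Alox5, which makes leukotrienes from arachidonic acid, was at 344 CPM in KO, 553 in labelled Het and 595 in labelled WT members. Its partner Alox5ap was at 4806 CPM in KO, 3523 in labelled Het and 2835 in labelled WT members, and Pla2g7, which breaks down platelet-activating factor, at 277, 138 and 100 CPM in KO, labelled Het and labelled WT.

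Peroxisomal genes other than Pex2 differed little. Of 12 peroxisome biogenesis genes, 5 were above and 2 below both other libraries, near the shares over all genes (41.4% and 21.4%), and only Pex2 passed 2-fold. Pex5, the receptor that brings enzymes to the import pore, was at 52.6 CPM in KO, 50.1 in labelled Het and 54.3 in labelled WT members. Of 27 peroxisomal enzymes and transporters, 11 were above and 4 below both, none by 2-fold, and the share above was near the 41.4% of all genes. Gnpat, the first enzyme of ether lipid synthesis, was at 40.0 CPM in KO, 26.7 in labelled Het and 24.9 in labelled WT members, while Prdx5, a peroxide-removing enzyme found in peroxisomes and mitochondria, was at 1580, 2453 and 3189 CPM in KO, labelled Het and labelled WT. Cat, catalase, was at 39.0 CPM in KO, 24.2 in labelled Het and 39.6 in labelled WT members.

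Of 17 measured genes of glutathione and antioxidant defence, Gstp3 among them, 9 were above and 4 below both other libraries, near the shares over all genes (41.4% above and 21.4% below). Gpx3, a glutathione peroxidase, was at 23.5 CPM in KO, 6.69 in labelled Het and 3.38 in labelled WT members, Gsto1, an omega-class glutathione transferase, at 19.7, 7.45 and 7.08 CPM in KO, labelled Het and labelled WT, and Sod1, the cytosolic superoxide dismutase, at 55.2, 27.0 and 27.1 CPM. The list medians were 0.22 for KO over labelled Het and 0.29 for KO over labelled WT, near those of all genes. Besides Gstp3, the genes below both were Prdx5, Mgst2 and Txn1.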

How the data were processed

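The deposited matrices hold whole-number UMI counts of 19059 genes per barcode. The authors made these counts with Cell Ranger 7.0.0 against mm10, per the submitters' processing notes, and they are not normalised. The sources used here give no other settings. The gate was applied to each barcode, UMIs were summed over members per library, and values are CPM of the sum. Log2 ratios have 0.5 counts added, and intervals (95%) are exact Poisson, conditional binomial or Clopper-Pearson, with log intervals for ratios of shares. No test was made, with 1 library per genotype. Doublets (Scrublet in scanpy 1.11.5) were kept and left out as an alternative.

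Members, lists and thresholds were chosen with earlier results of these data known. Genes could be named from a mean level of 50 CPM and a total of 30 UMIs, with KO beyond both other libraries and both intervals excluding 1. They were ranked by the smaller absolute log2 ratio, and the first 15 of 1152 higher and 691 lower genes were taken, with leading members of lists. The comparison was tested on simulated sums with known changes. Beside those changes the simulated libraries differed by counting noise alone, so variation between animals was not part of it. Alternative scalings used edgeR 4.0.16 (TMM factors) and DESeq2 1.42.0 (size factors), neither for a test. B-lineage barcodes (Cd79a and Cd79b at least 1000 CPM, neutrophil genes below 2000 CPM) gauged free RNA. Positions come from the GRCm38 annotation. Counts were read with Python 3.11.15, numpy 2.4.6 and scipy 1.17.1.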

Additional observations from a re-analysis of the deposited data

How the results depend on the processing

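Shares kept their order, with KO highest and labelled Het lowest, under all settings of the gate tried, but their size moved. At 2000 CPM of Mmp8 and Mmp9 the shares were 41.9%, 26.6% and 34.5% in KO, labelled Het and labelled WT, with a KO over labelled Het ratio of 1.57 and 115 genes 2-fold higher. At 8000 CPM they were 20.1%, 9.50% and 15.8%, with KO over labelled Het at 2.11 and labelled Het over labelled WT at 0.600. Thinning barcodes to 3000 UMIs first gave 29.2% for labelled WT and 1.17 for KO over labelled WT. Leaving out barcodes with other lineages' markers gave 22.5%, 10.6% and 20.4% in KO, labelled Het and labelled WT, with ratios of 2.12, 1.11 and 0.522 (KO over labelled Het, KO over labelled WT, labelled Het over labelled WT). With Cd3d and Cd3g not counted, chosen after seeing the data, it gave 40.9%, 26.6% and 35.9%, with KO ratios of 1.54 over labelled Het and 1.14 over labelled WT. Genes 2-fold higher in KO numbered 89 without dividing members, 426 with a minimum of 1 CPM and 44 with 50 CPM, and genes 2-fold lower numbered 346 and 28 with those minimums.

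Of 1260 values of the 30 named genes over 21 alternatives, 1249 kept their sign and 1221 stayed past 2-fold. These genes were chosen for large ratios in the same data, which favours such counts. Leaving out shared barcodes, of which there were none, and the minimums of 1 and 50 CPM could not change any of these values. The exceptions in sign among the named genes were cell-cycle genes and Fn1. At 8000 CPM, KO over labelled WT was -0.30 for Hist1h2ap and -0.072 for Hist1h2ae. Without dividing members, KO over labelled Het was -0.38 for Hist1h2ap, -0.29 for Hist1h2ae, -0.27 for Mki67 and -0.27 for the mitosis list, of which Mki67 alone passed the 10 CPM minimum (0.13 for KO over labelled WT), and KO over labelled WT was -0.38 for Hist1h1b, -0.79 for Hist1h2ap and -0.87 for Hist1h2ae. In the lowest quartile of granule RNA, KO over labelled Het was -0.021 for Ccnb2 and KO over labelled WT was -0.013 for Hist1h1b. Fn1 gave -0.25 against labelled WT in members without monocyte or macrophage UMIs. These last settings were chosen after seeing the data, and cells were removed by the genes concerned or by genes that rise with them. Of 1428 list medians over the alternatives, the median of all genes included, 1283 kept their sign. With a minimum of 50 CPM the integrated stress response medians were 0.02 (KO over labelled Het) and 0.81 (KO over labelled WT). The glutathione median for KO over labelled Het was -0.036 there. The mitochondrially encoded, glucocorticoid-induced and lysosome medians kept their sign throughout. No paired analysis was possible because each genotype had 1 library. All intervals and ratios leave out variation between animals, and low genes in the shallower libraries are the least precise.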

Other observations

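Members of the library labelled Het stood apart in a few genes that KO and labelled WT barely expressed. Prg2, the major basic protein of eosinophils, was at 1.10 CPM in KO, 128 in labelled Het and 3.96 in labelled WT members, and Epx, eosinophil peroxidase, at 0.175, 20.4 and 0.423 CPM in KO, labelled Het and labelled WT. The 5 measured eosinophil markers summed to 6.46 CPM in KO, 156 in labelled Het and 8.93 in labelled WT members. Prg2 lay mostly in the labelled Het quartile with the least granule RNA, at 722 CPM. What those cells are was not tested.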
